A study of Mus musculus with 4 samples.

Results

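Zinc finger protein genes, taken here as genes whose symbol starts with Zfp and a digit in either deposited peak list, numbered 80 of the 7235 genes that the lists name. The study mapped binding of MyoD, a bHLH transcription factor of the muscle lineage, by ChIP-seq with the antibody SC-760 in mouse myotubes, which are fused, multinucleated muscle cells. They were grown from primary myoblasts of C57BL/6 mice at 2 weeks of age, differentiated over 5 days and then given medium with pyruvate or without it for 24 hours. The labels give no transgene or deletion in either group and do not say how many animals the cells came from. The 4 samples were a MyoD ChIP library and an input of each condition, and the 2 ChIP libraries had a peak list each, of 11907 peaks (labelled with pyruvate) and 19338 peaks (labelled without). Because each condition had a single ChIP library, differences could not be set against replicate spread, and no test was run. The direction of every difference rests on the sample titles, since an abbreviation in the deposited names can be read the other way and no measured value checks it. The depth of the libraries is unknown, so that a site listed once may have been bound but undetected in the other condition. The files hold no expression values, so the myotube identity of the cells was not checked.

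Most Zfp genes encode proteins with fingers of the C2H2 type, in which cysteines and histidines hold a zinc ion and the finger reads DNA. Many of them also carry a KRAB domain, which recruits the corepressor Trim28 and the histone methyltransferase Setdb1 to silence retrotransposons and imprinted loci, and such genes often lie side by side in clusters that arose by duplication. A few members with the same symbol stem do other work, such as Zfp36l2, which binds AU-rich RNA and speeds its decay. MyoD binds DNA as a dimer with an E protein at the E-box, the motif CANNTG, and favours the form CAGCTG.

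At 2 Zfp genes a peak lay over the gene start in both lists and the annotated starts could be matched to a RefSeq promoter by gene length, so their promoters are shown. They run from 250 bases before to 50 bases after a RefSeq start (build GRCm38.p6), 5′ to 3′ on the gene's strand, with each CANNTG in capitals. The peaks are in mm9, and the 2 builds were related only through the length of the gene, not by coordinates. For Zfp238, listed in RefSeq as Zbtb18, RefSeq gave 5 promoters. The start that leaves a gene length of 6104 bases, against 6100 in the deposited files, lies in the first Zfp238 sequence. The start in the second sequence is 1160 bases further into the gene, and by distance this promoter covers part of a peak inside the gene. For Zfp605 the lengths were 21445 and 21646 bases, so that its start is matched less closely.
Zfp238, chr1:177444411-177444710, plus strand: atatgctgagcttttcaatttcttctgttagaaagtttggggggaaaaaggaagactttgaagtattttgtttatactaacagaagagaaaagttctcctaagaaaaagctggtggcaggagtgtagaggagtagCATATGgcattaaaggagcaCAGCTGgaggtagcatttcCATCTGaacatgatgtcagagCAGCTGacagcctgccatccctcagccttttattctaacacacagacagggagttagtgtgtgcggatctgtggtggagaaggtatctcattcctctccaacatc
Zfp238, chr1:177445571-177445870, plus strand: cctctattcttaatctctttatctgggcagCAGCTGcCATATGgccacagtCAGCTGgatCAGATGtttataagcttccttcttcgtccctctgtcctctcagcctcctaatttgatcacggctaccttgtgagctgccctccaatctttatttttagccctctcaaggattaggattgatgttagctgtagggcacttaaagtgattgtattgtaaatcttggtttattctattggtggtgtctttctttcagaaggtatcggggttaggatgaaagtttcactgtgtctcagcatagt
Zfp605, chr5:110109842-110110141, plus strand: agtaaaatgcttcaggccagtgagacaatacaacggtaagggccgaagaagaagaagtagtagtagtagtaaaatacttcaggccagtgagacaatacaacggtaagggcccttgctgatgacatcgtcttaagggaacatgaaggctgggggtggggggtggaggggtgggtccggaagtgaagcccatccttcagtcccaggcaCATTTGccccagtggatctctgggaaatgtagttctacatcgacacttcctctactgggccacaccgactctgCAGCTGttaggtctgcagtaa

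The first Zfp238 promoter held 4 CANNTG, of which 2 were CAGCTG, the second held 4 with 2 CAGCTG, and the Zfp605 promoter held 2 with 1 CAGCTG. The general motif is common. CANNTG was present in 72.3% of all 32851 RefSeq promoters of the same length, and CAGCTG in 16.3% of them. Both motifs read the same on both strands, and every CAGCTG is also a CANNTG. Of the other 3 promoters that RefSeq lists for Zfp238, the one whose start lies at -8 bases from the matched start held 5 CANNTG with 2 CAGCTG, and those at -2310 and 277 bases held 1 CANNTG each and no CAGCTG. The promoter at 277 bases also touches the start peak. RefSeq promoters were found for 5 of the 8 Zfp genes with a placed start and a peak at this window in either list. The remaining 3 of these, Zfp101, Zfp398 and Zfp597, had 2, 3 and 3 CANNTG, with a CAGCTG only in Zfp398. Their lengths from the RefSeq start differed from those in the files by -19671, 5285 and -15410 bases, so these starts were not matched. For the 56 other Zfp genes in the peak lists with RefSeq promoters, no peak was placed at this window. Of their 75 promoters, 66.7% held CANNTG (95% exact binomial interval 54.8 to 77.1) and 20.0% held CAGCTG (11.6 to 30.8). Of 322 promoters of RefSeq Zfp genes named in neither list, 66.5% and 14.9% did. The start of 15 of the 80 genes could not be placed, so a peak at this window could not be assessed there. Any of these 15 with a RefSeq promoter count among the 56. A match is a description of the letters and not a binding site.

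Zfp238 encodes RP58, a repressor of transcription known as a MyoD target in muscle differentiation, where it represses the Id genes. Both lists held the same pair of peaks there. One lay over the start, at chr1:179374611-179374829 of mm9 with pyruvate (218 bases wide) and at chr1:179374639-179374831 without (192 bases). The other lay inside the gene, centred 0.949 kb from the start with pyruvate and 0.9245 kb without, and was 270 and 267 bases wide. Zfp238 thus had 2 peaks in each list and no peak in 1 list alone. Its start peak was also listed, with and without pyruvate, for a gene given by ID alone. At Zfp605 both lists held a single peak over the start, 291 bases wide with pyruvate and 307 without, which the files also list in a flank of Gtpbp6.

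Both lists named 30 of the 80 genes, while 16 had a peak only with pyruvate and 34 only without. A gene was counted where a peak was listed in its body or in a 2000-base flank. Over all 7235 genes the shares were 55.1% for both lists, 9.95% for with pyruvate only and 35.0% for without only. For Zfp genes they were 37.5% (26.9 to 49.0), 20.0% (11.9 to 30.4) and 42.5% (31.5 to 54.1), against 55.3% (54.1 to 56.4), 9.84% (9.16 to 10.6) and 34.9% (33.8 to 36.0) for the other 7155 genes. The intervals did not overlap for both lists or for with pyruvate only, and overlapped for without only. These are exact binomial intervals at 95%, here and below, and they cover counting error only.

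Overlapping genes and narrow peaks move with this split. Of the Zfp peaks, 15 of 70 with pyruvate but 6 of 108 without were also listed for a gene outside the family. Of the 16 genes seen only with pyruvate, 7 rested on such peaks alone: Zfp84, Zfp286, Zfp385c, Zfp526, Zfp597, Zfp646 and Zfp867. None of the 34 seen only without did, and 4 of the 30 in both lists did: Zfp106, Zfp276, Zfp322a and Zfp605. When only peaks listed for 1 gene were kept, 67 of the 80 Zfp genes and 5498 of all 7235 genes were left. The same split by list is not given here for other genes. Genes listed by ID alone, as beside Zfp84 and Zfp286, were taken as outside the family because they carry no Zfp symbol. With only peaks listed for 1 gene, 26 Zfp genes were in both lists (38.8%, 27.1 to 51.5, against 54.4% of all genes so treated), 9 only with pyruvate (13.4%, 6.33 to 24.0, against 9.73%) and 32 only without (47.8%, 35.4 to 60.3, against 35.8%). The interval for with pyruvate only then overlapped that of other genes (8.91 to 10.5), while the interval for both lists still did not (53.3 to 56.0).

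With only peaks of at least 250 bases, 42 Zfp genes were left, 21 in both lists (interval 34.2 to 65.8%, against 50.5% of all genes so treated), 4 only with pyruvate (9.52% against 14.3%) and 17 only without (40.5% against 35.3%). All 3 intervals overlapped those of other genes. When the longer list was cut by width to the length of the shorter, 29 Zfp genes were in both lists (46.8% against 57.1%), 17 only with pyruvate (27.4% against 22.3%) and 16 only without (25.8% against 20.6%), again with overlapping intervals. The difference between Zfp and other genes was thus within counting error under both limits on width.

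**Figure D1:**
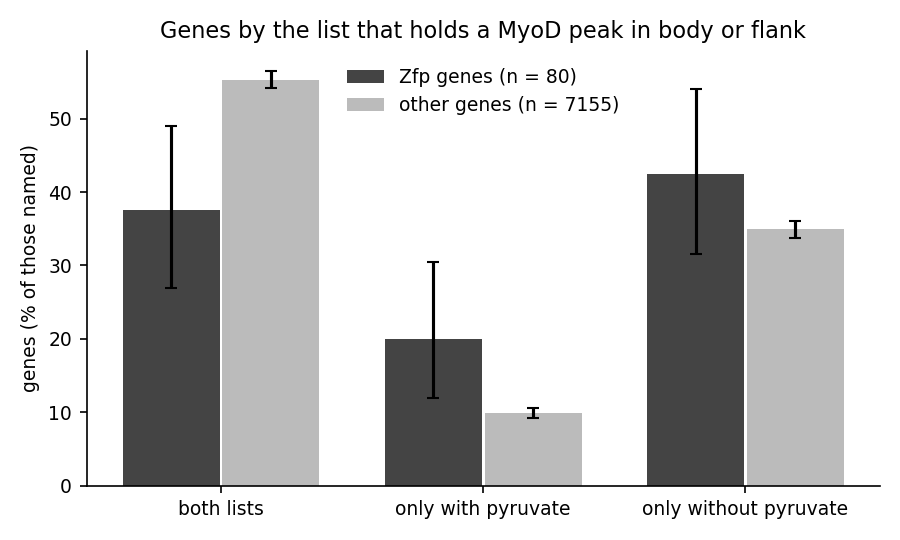
Share of genes (y axis, % of the genes that the lists name) with a MyoD peak in both lists, only with pyruvate or only without, for the 80 Zfp genes (dark bars) and the 7155 other genes (light bars); error bars are 95% exact binomial intervals. The Zfp bar is lower for both lists (37.5% against 55.3%) and higher for with pyruvate only (20.0% against 9.84%).

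The number of peaks per gene differed as well and moves with this split, because a gene with 1 peak that has no partner cannot be in both lists. Of the Zfp genes, 51.25% had a single peak over both lists together, against 37.5% of other genes. Among genes with exactly 2 peaks, 12 of 20 Zfp genes were in both lists, or 60.0% (36.1 to 80.9), against 81.2% (79.4 to 82.9) of 2048 other genes, and these intervals overlapped. Among genes with 3 or more, 18 of 19 Zfp genes (94.7%) and 94.4% of other genes were in both. The single-peak class is empty of shared genes by construction, and grouping by the peaks of both lists together uses the lists being compared, so these shares describe the genes and locate no difference.

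Gene length moves with the split too. Where the body could be placed, 6 of 17 Zfp genes under 20 kb were in both lists (35.3%, against 50.1% of other genes), 14 of 33 between 20 and 100 kb (42.4% against 57.0%) and 9 of 15 of 100 kb or more (60.0% against 67.8%). The Zfp share was the lower in each length class. In the middle and longest classes its interval overlapped that of other genes (25.5 to 60.8 and 32.3 to 83.7), and in the shortest it did as well (14.2 to 61.7). Genes seen only with pyruvate were 6 of 17 under 20 kb, or 35.3% (14.2 to 61.7) against 11.9% (10.3 to 13.6) of other genes, and these intervals did not overlap. In the longer classes they were 12.1% against 8.45% and 6.67% against 6.17%, with overlapping intervals. Zfp84 and Zfp526, among the 6 under 20 kb, rested only on peaks also listed for a gene outside the family. The share under 20 kb was not taken without such peaks.

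The 80 genes held 70 distinct peaks with pyruvate and 108 without, and the other 7155 genes held 7382 and 11273. Of the 80, 19 had 3 or more peaks over both lists, or 23.75%, a lower share than the 33.9% of other genes. Zfp652, a transcriptional repressor, had the most, with 7 peaks with pyruvate and 6 without. Zfp568, a KRAB protein that silences a placental promoter of Igf2, had 6 and 4, and Zfp704 had 4 and 5. Zfp407 and Zfp608 went further to 1 list, with 1 peak with pyruvate and 6 and 5 without. At the other end, 15 of the 16 genes seen only with pyruvate and 26 of the 34 seen only without had a single peak. A single peak was common outside the family too: of the 704 other genes seen only with pyruvate, 607 had 1. In all, 2680 other genes had a single peak, and those beside the 607 were among the 2497 seen only without.

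**Figure D2:**
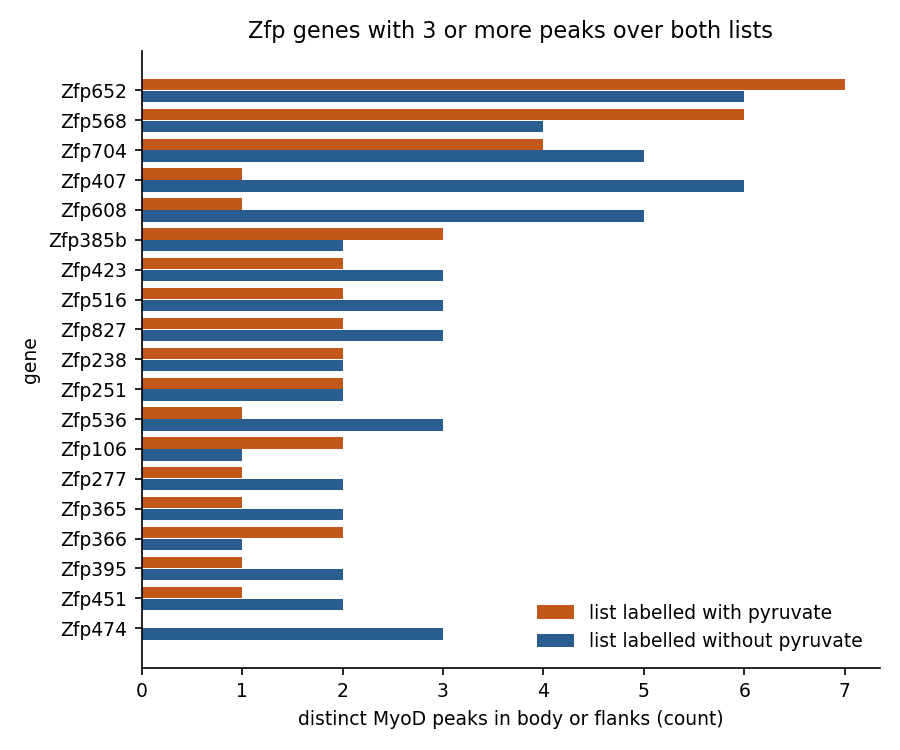
Number of distinct MyoD peaks (x axis, count) in the body or flanks of the 19 Zfp genes with 3 or more peaks over both lists, with pyruvate (orange) and without (blue). Zfp652 leads with 7 and 6 peaks, and Zfp407 has 1 against 6.

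Among long genes, the peaks of Zfp652 were nearly all shared. Its body is 122.443 kb long in the files, and 6 of its peaks, centred between 65.3 and 95.8 kb from the start, overlapped between the lists. Their widths with pyruvate were 210, 193, 269, 353, 283 and 250 bases, in order along the gene, and those of their partners were 263, 217, 305, 203, 291 and 160 bases. The peak with pyruvate was the narrower in 4 of the 6 pairs. The seventh peak with pyruvate, 228 bases wide near the 3′ end and also within Abi3, had no partner.

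The widest peaks of any Zfp gene lay in Zfp568. Inside its body, 24.4 kb from the start, a peak at chr7:30792982-30793762 was 780 bases wide with pyruvate and its partner 715 bases without. The next, at chr7:30794372-30795247, was 875 bases wide with pyruvate and 748 without, and a further pair within 2 kb of it was 252 and 270 bases wide. Another pair lay over the start, 371 and 358 bases wide. Zfp568 therefore kept 4 peaks in both lists, while peaks of 190 and 268 bases, 3.797 and 5.233 kb from the start, were listed only with pyruvate.

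Zfp423 and Zfp521 encode related proteins with many fingers, the first known for commitment to the fat lineage and for BMP signalling. Zfp423 had a wide shared peak 243.5 kb from its start, at chr8:90239666-90240243, 577 bases wide with pyruvate and 622 without. A second shared peak was 283 and 297 bases wide, and a peak of 235 bases was only in the list without. Zfp521 had no peak with pyruvate and 2 without, of 366 bases (chr18:13946197-13946563) and 161 bases. The paralogues thus differed in which lists named them, with no measure of error for that difference.

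Zfp407 had the widest Zfp peak without a partner, 607 bases at chr18:84583686-84584293 in the list without pyruvate. A second unpartnered peak, 189 bases wide, lay beside it, and 3 more of 350, 259 and 246 bases lay elsewhere in the body, which is 461.699 kb long. The only peak with pyruvate was 281 bases wide and overlapped a peak of 257 bases. In Zfp704, 2 pairs were shared (265 and 291 bases, 192 and 342 bases), peaks of 323 and 172 bases were listed only with pyruvate, and peaks of 183, 199 and 238 bases only without. Zfp608 had 1 shared pair (325 bases with pyruvate, 241 without) and 4 peaks of 192 to 283 bases without pyruvate only.

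**Figure D3:**
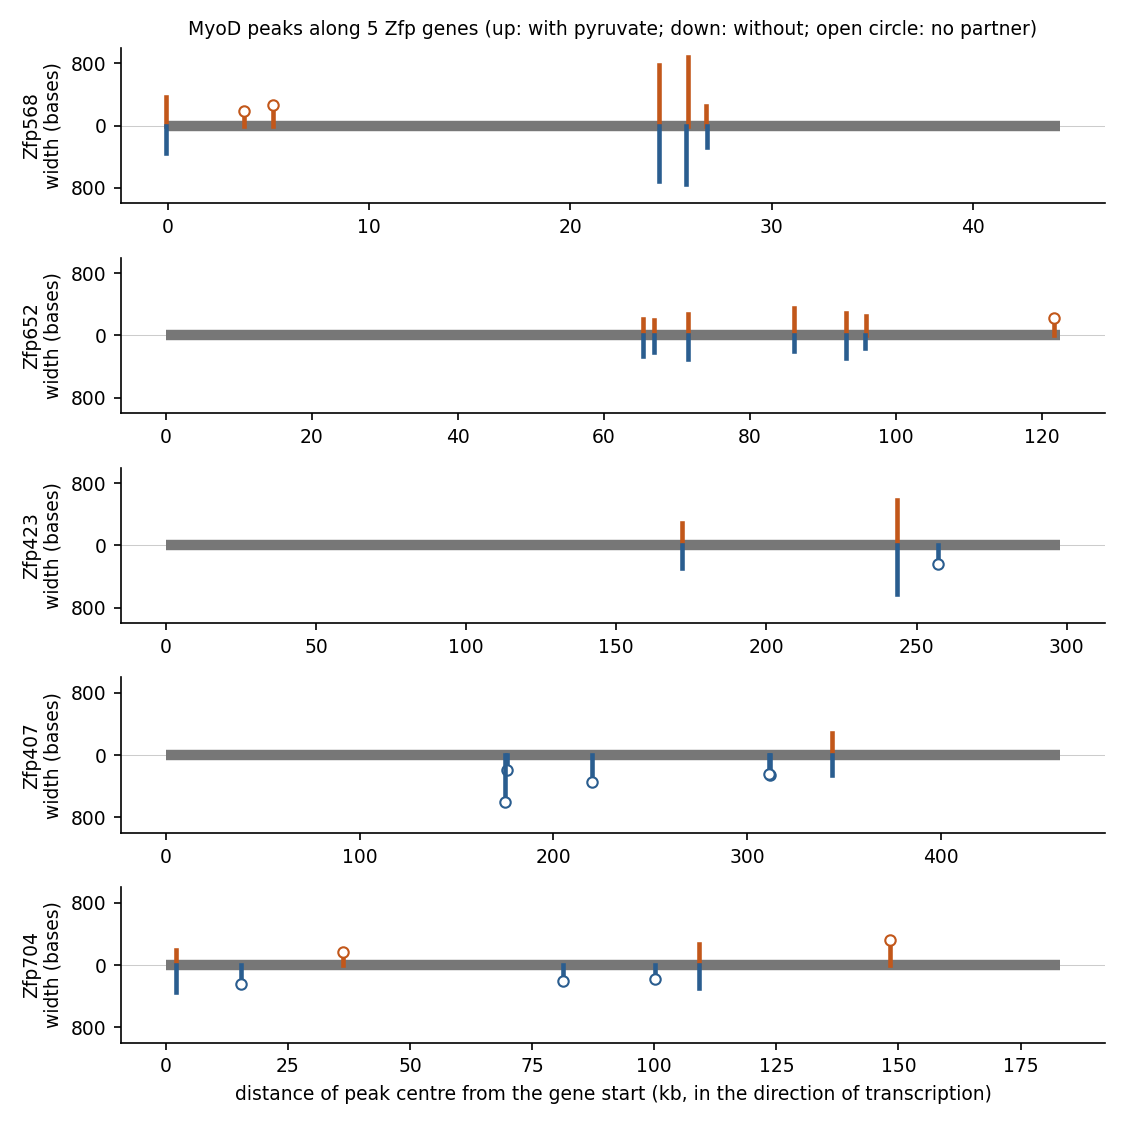
MyoD peaks along Zfp568, Zfp652, Zfp423, Zfp407 and Zfp704. The x axis is the distance of the peak centre from the gene start in kb along the direction of transcription, the grey bar is the gene body, the height of each line is the peak width in bases (upward for the list with pyruvate, downward for the list without), and an open circle marks a peak with no partner in the other list. The lines of Zfp652 and Zfp568 mostly stand in pairs, and 5 of the 6 downward lines of Zfp407 carry a circle.

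Other wide shared peaks lay in Zfp277 (350 bases with pyruvate, 554 without), Zfp940 (458 and 519), Zfp536, a negative regulator of neuronal differentiation (354 and 468), the SUMO ligase gene Zfp451 (265 and 401), Zfp366 (236 and 433) and Zfp106, an RNA-binding protein needed for the upkeep of motor neurons and muscle (469 and 275). At Zfp661 the pair lay in a flank whose side is not shown, 201 bases wide with pyruvate and 451 without. Of these 7 pairs, the peak without pyruvate was the wider in 6, and Zfp106 was the exception. Over all 41 Zfp peaks of the list with pyruvate that had a partner, the partner was the wider in 27, or 65.9% (49.4 to 79.9), with a median difference of -18.0 bases (with minus without). Among the 5288 such peaks of other genes the share was 59.6% (58.2 to 60.9) and the median difference -18.5 bases.

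The genes seen only with pyruvate had mostly narrow peaks. The widest was 437 bases, in Zfp286 (chr11:62575152-62575589) and also in 2 unnamed overlapping genes, followed by peaks of 264 bases in Zfp385c and 253 bases in Zfp53. Across the 16 genes the median of the widest peak was 210 bases, and across the 34 genes seen only without pyruvate it was 206. In that second group the widest peaks lay in Zfp462 (367 bases) and Zfp521 (366 bases), then Zfp457 (309 bases) and Zfp385a (304 bases).

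Widths of Zfp peaks were close to those of other genes. The median was 248.5 bases (interquartile range 204 to 289) over the 70 peaks with pyruvate and 244.5 (192 to 300.5) over the 108 without, against 249 (204 to 314) and 239 (194 to 303) for peaks of other genes. Peaks with a partner had a median of 281 bases with pyruvate and 294 without, and those without a partner 209 and 203. For other genes these medians were 264 and 284, then 218 and 211.

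**Figure D4:**
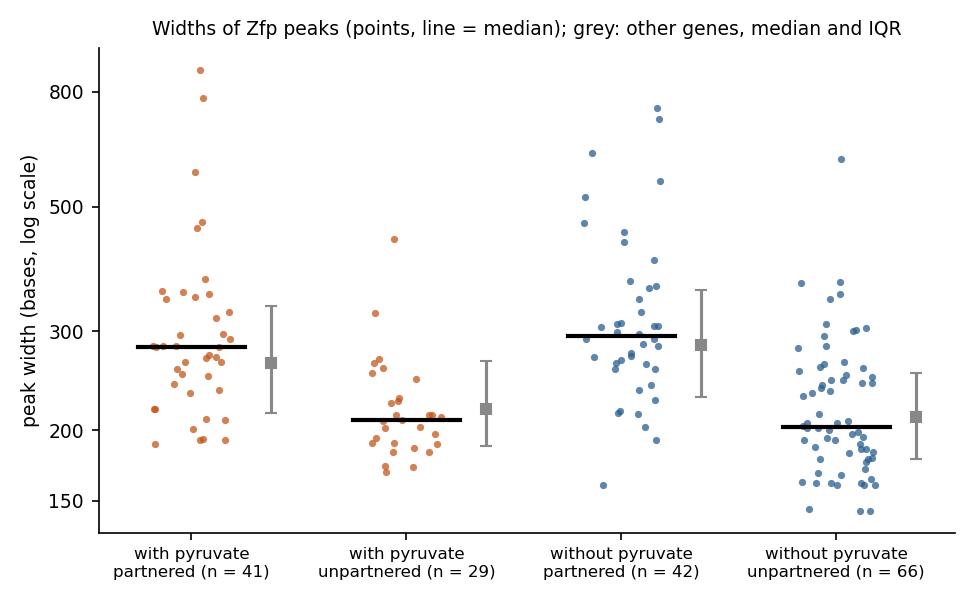
Width of each Zfp peak (y axis, bases, log scale) by list and by whether it overlaps a peak of the other list; black lines are medians, and grey squares with bars are the median and interquartile range for peaks of other genes. Partnered Zfp peaks have medians of 281 and 294 bases and unpartnered ones 209 and 203.

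Of the Zfp peaks, 41 of 70 with pyruvate overlapped the other list by at least 1 base, or 58.6% (46.2 to 70.2), against 71.6% (70.6 to 72.7) for other genes. Without pyruvate 42 of 108 did, or 38.9% (29.7 to 48.7), against 47.0% (46.1 to 47.9). The first pair of intervals did not overlap by a narrow margin and the second did. Peaks within 1 gene are not independent, so these intervals are too narrow. By width, 4 of 15 Zfp peaks under 200 bases had a partner with pyruvate (26.7%, against 53.5% for other genes), 24 of 40 from 200 to under 300 bases (60.0% against 71.6%), and 13 of 15 of 300 bases or more (86.7% against 85.5%). Without pyruvate the same classes had 2 of 32 (6.25% against 21.9%), 21 of 48 (43.75% against 44.4%) and 19 of 28 (67.9% against 78.9%). The median distance of an unpartnered Zfp peak to the other list was 30.6 kb with pyruvate, where 0 of 29 were within 1 kb, and 81.3 kb without, where 2 of 66 were. The first distance is to a list of 19338 peaks and the second to one of 11907, so these medians cannot be compared directly. Distances for other genes were not taken.

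Most Zfp peaks were inside gene bodies. With pyruvate, 58 of 70 peaks were listed only in a body (82.9%, 72.0 to 90.8), 10 only in a flank and 2 in both. Without pyruvate, 91 of 108 were listed only in a body (84.3%, 76.0 to 90.6), 16 only in a flank and 1 in both. For peaks of other genes the shares only in a body were 82.6% and 84.0%. The files do not list every region that a peak touches. By coordinates, 9 peaks of Zfp genes with a placed body also reached an unlisted body or flank of the same gene. Each did so with under 50% of its width, as at the start of Zfp238. Genes given by flank rows alone could not be checked in this way.

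By gene, a flank peak was listed in both lists for 4 Zfp genes, only with pyruvate for 7 and only without for 13, against 14.2%, 5.11% and 12.6% of all genes. As shares of the 80 genes these were 5.0% (1.38 to 12.3), 8.75% (3.59 to 17.2) and 16.25% (8.95 to 26.2). The intervals for all genes were 13.4 to 15.0, 4.62 to 5.65 and 11.8 to 13.3. They did not overlap for both lists, where the Zfp share was the lower, and overlapped for the rest. Overlap with genes outside the family bears on these counts. Of the 7 only with pyruvate, 4 (Zfp526, Zfp597, Zfp646 and Zfp867) rested on flank peaks also listed for such a gene. So did 2 of the 4 in both lists, Zfp238 and Zfp605, and 0 of the 13 only without. With only peaks whose regions all belong to Zfp genes, the share of peaks with pyruvate listed in a flank fell from 17.1% to 9.09%. The 4 genes in both were Zfp238, Zfp568, Zfp605 and Zfp661. The files give 15 genes by flank rows alone, which do not tell upstream from downstream, among them Zfp182 and Zfp280c on chromosome X. Of the genes whose flanks could be placed, 9 had an upstream flank peak, and 2 of these, Zfp526 and Zfp474, also had one downstream.

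The start could be placed for 65 Zfp genes. A peak reached within 2 kb of it for 5 in both lists, for 4 only with pyruvate and for 9 only without, against 12.9%, 3.85% and 11.5% of the 5818 located genes of all kinds. The 5 were Zfp238, Zfp568, Zfp605, Zfp3 and Zfp367. At Zfp3 the peaks, 346 and 361 bases wide, were centred 0.232 and 0.2375 kb into the gene, and at Zfp367, 218 and 285 bases wide, 0.78 and 0.8185 kb. Those only with pyruvate were Zfp385b, Zfp503, Zfp526 and Zfp597. Zfp704 counted as only without although its site is shared, since its peak without pyruvate begins 1963 bases from the start and the overlapping peak with pyruvate begins at 2054. Zfp36l2 was among those only without, with a peak of 161 bases 1.0015 kb into the gene. By list, 13.8% (6.53 to 24.7) of located Zfp genes had a peak within 2 kb with pyruvate and 21.5% (12.3 to 33.5) without, against 16.8% and 24.4% of other located genes, and the intervals overlapped.

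Per length of gene body, Zfp genes held about as many peaks as other genes. Their located bodies had a median of 33.9 kb (interquartile range 19.9 to 76.9), against 47.4 kb (19.5 to 111) for other genes, and held 1.23 peaks per 100 kb with pyruvate and 1.88 without. Other genes held 1.24 and 1.89. With each body cut into 3 equal parts, 28.3% of Zfp body peaks with pyruvate lay in the 5′ part (17.5 to 41.4), 40.0% in the middle (27.6 to 53.5) and 31.7% in the 3′ part (20.3 to 45.0). Without pyruvate the shares were 28.3%, 41.3% and 30.4%. For other genes the 5′ part held the most, 37.2% with pyruvate and 38.5% without, with intervals that overlapped those of the Zfp genes. Bodies are listed only where a peak touches them, so these values describe bound genes.

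Zfp genes with a peak formed 7 clusters of 2 to 4 neighbours, with at most 500 kb between genes, and these held 18 of the 80 genes. The largest, on chromosome 7 of mm9 from 30553571 to 30875529, held Zfp84, Zfp940, Zfp568 and Zfp566, with 8 peaks with pyruvate and 6 without. Of these, 5 in each list were partnered, 4 at Zfp568 and 1 at Zfp940, while Zfp84 had a peak only with pyruvate (211 bases) and Zfp566 only without (280 bases). Zfp668 and Zfp646 formed another chromosome 7 pair, with a shared peak in Zfp668 (233 and 227 bases) and a peak beside Zfp646 only with pyruvate (190 bases).

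In the other 5 clusters every peak came from 1 list. Zfp787, Zfp667 and Zfp583, within 184 kb at chr7:6083091-6267261, had a peak each with pyruvate, of 203, 208 and 209 bases, and none without. Zfp53 and Zfp948 on chromosome 17 also had peaks only with pyruvate, of 253 and 194 bases. Zfp882, Zfp617 and Zfp961 on chromosome 8 had peaks only without pyruvate: the first 2 share 1 peak of 197 bases, because their flanks overlap, and Zfp961 had 1 of 243 bases. Zfp708 and Zfp457 on chromosome 13 (202 and 309 bases) and Zfp398 and Zfp956 on chromosome 6 (206 and 144 bases) were likewise only without. All 12 genes of these clusters had a single peak each, between 144 and 309 bases wide. A gene with 1 peak that has no partner is in 1 list by construction. Whether neighbours fall in the same list more often than other genes was not tested.

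Clustered genes were in both lists in 3 of 18 cases, or 16.7% (3.58 to 41.4), and the 62 other Zfp genes in 27, or 43.5% (31.0 to 56.7). The intervals overlapped. The clustered genes were shorter, with a median body of 20.05 kb over the 11 that could be placed, against 37.4 kb for the 54 others, and the part of length in this difference was not tested. Chromosome 7 held the most Zfp genes, 15, of which 5 were in both lists, 6 only with pyruvate and 4 only without. Among the other 495 genes of chromosome 7, 15.6% were only with pyruvate (12.5 to 19.1), against 40.0% of the 15 (16.3 to 67.7), with overlapping intervals.

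Most of the family was not named in either list. RefSeq lists 397 protein-coding genes with a Zfp symbol, and the lists name 80 of these, or 20.2% (16.3 to 24.4), against 27.1% of all 21887 protein-coding genes. These 80 are not quite the same set as above, since Zfp238 has another RefSeq symbol and Zfp607b is listed under the older symbol C030039L03Rik. By RefSeq length, 11.9% of Zfp genes under 20 kb were named (7.90 to 16.9; other genes 13.9%), 23.1% between 20 and 50 kb (16.3 to 31.2; other genes 30.7%) and 52.3% of 50 kb or more (36.7 to 67.5; other genes 55.3%). In each class the Zfp interval held the share of other genes. The annotation behind the lists is not given. A gene missing from it, or listed by ID alone, counts as not named here and in the runs below.

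Neighbouring position in RefSeq separated the family further. A run was taken as 3 or more Zfp genes with at most 5 other protein-coding genes between neighbours. Of 224 genes in runs, 27 were named, or 12.1% (8.10 to 17.1), and of 173 outside runs 53 were, or 30.6% (23.9 to 38.1). Of 32 runs, 17 had no named member, including the run of 16 genes on chromosome 4 from Zfp990 to Zfp933. The largest, 24 genes on chromosome 13, had Zfp708 and Zfp457 named, and that of 15 genes on chromosome 7 had the 4 genes around Zfp568. Genes in runs were named less often at each length, with 9.16% against 15.9% under 20 kb, 15.7% against 35.3% between 20 and 50 kb and 2 of 10 against 21 of 34 from 50 kb, and the intervals overlapped within each class.

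**Figure D5:**
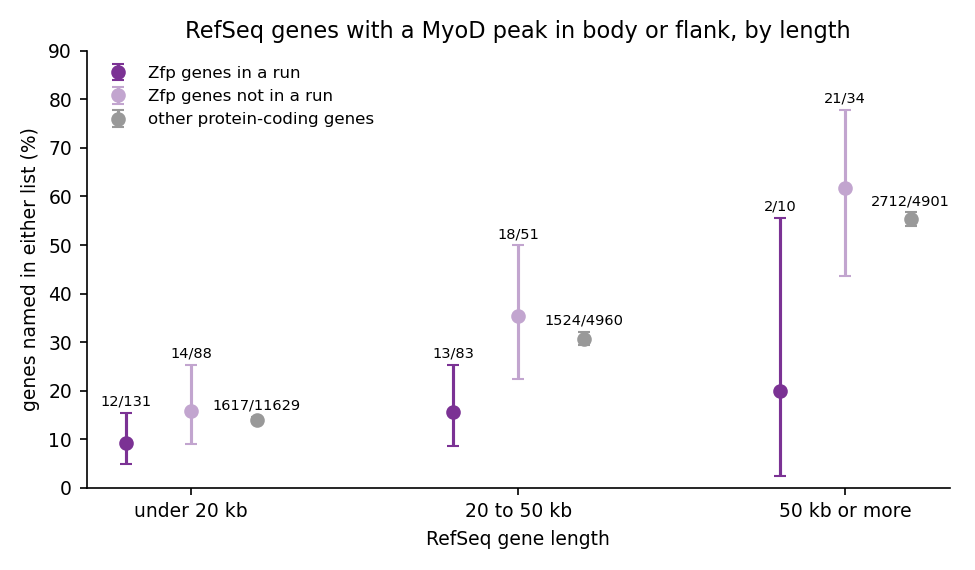
Share of RefSeq genes named in either list (y axis, %) by RefSeq gene length, for Zfp genes in runs of neighbours, Zfp genes outside runs and other protein-coding genes; points are shares, bars are 95% exact binomial intervals and the labels give named genes over all genes. Zfp genes in runs lie lowest in each class, at 9.16%, 15.7% and 20.0%.

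Some members were named in neither list: Zfp36 and Zfp36l1, which like Zfp36l2 act in mRNA decay, the stem cell marker Zfp42 (Rex1), Zfp57, which protects imprints, Zfp281 and Zfp637. Among related families, 19 of 41 Zbtb genes were named under that symbol (Zbtb18, listed as Zfp238, is not among the 19), 12 in both lists, 1 only with pyruvate (Zbtb8a) and 6 only without. Zbtb20 led with 8 peaks with pyruvate and 13 without, and Zbtb7c had 10 and 8. All 6 named Klf genes of 17 were in both lists, Egr1 only without (305 bases), Zkscan6 only without (259 bases), and of 16 Zscan genes 0 were named. Of 17 genes for the KRAB corepressor machinery, 4 were named: the heterochromatin protein gene Cbx5, the DNA methyltransferase gene Dnmt1 and the remodeller gene Chd3 in both lists, and Atrx only without. Trim28 and Setdb1 were named in neither. The counts of named genes stand beside 27.1% of all protein-coding genes, the counts in both lists beside 55.1% of all named genes, and no difference between families was tested.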

How the data were processed

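MyoD was immunoprecipitated from sonicated nuclei, and the deposited tables give 1 peak list per ChIP library. The tools were MACS2 2.1.1, Bowtie2 2.1.0 and bcl2fastq 2.19, and the build mm9, per the submitters' processing notes. How the authors set the peak threshold, used the inputs and chose an annotation is not given in the sources used here, and input samples were not analysed here. The column headed fold enrichment holds 0 in each row with a number (0 rows differ), so peak width, the deposited end minus the start, was the only measure per peak. It also depends on depth and fragment length. Rows were reduced to distinct peaks (73 Zfp rows to 70 peaks with pyruvate, 111 to 108 without), and peaks were partners when they overlapped by at least 1 base. Coordinates are as deposited. A gene ID without a body row but with both flanks was placed between them.

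Shares carry 95% exact (Clopper-Pearson) intervals. No finger content was computed, since no protein sequences were used here, and no test was run. All 80 symbols matched RefSeq (GRCm38.p6), 79 as written and 1 by an older symbol, and 61 had a promoter of 300 bases. The members, lists and comparisons were chosen with earlier results of these data known. Genes were named by a rule: 10 fixed genes (4 in the lists), the widest peaks, the most peaks, the widest unpartnered peaks and the members of the 4 largest clusters. Other genes in the text were picked with their values in view. Alternatives were stricter overlap, peaks of at least 250 bases, the widest peaks of the longer list, flank peaks alone, peaks touching Zfp genes alone, peaks listed for 1 gene, other start-site windows and other cluster gaps. The overlap and cluster code was tested on simulated data. Versions were matplotlib 3.10.9, scipy 1.17.1, numpy 2.4.6, pandas 2.3.3 and Python 3.11.15.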

Additional observations from a re-analysis of the deposited data

How the results depend on the processing

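Of 43 alternatives for 16 results, 28 stayed within their bounds and 15 moved. The region classes by coordinates, the 2 other definitions of a RefSeq run and the limit to peaks listed for 1 gene were chosen after seeing the data. Of these, the last moved the genes only with pyruvate, to 9, and the others moved no result. Values are for with pyruvate, then without.

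With peaks of at least 250 bases, 35 and 51 Zfp peaks were left, 4 genes were only with pyruvate and 17 only without, 71.4% and 49.0% of peaks overlapped, and 5.71% of peaks with pyruvate were in a flank. With only flank peaks, 4 genes were in both lists, 7 only with and 13 only without, as fewer peaks count. With the longer list cut by width to equal length, 16 genes were only without. With only peaks whose regions all belong to Zfp genes, 9.09% of peaks with pyruvate were in a flank. Within 10 kb of the start, 26.2% and 38.5% of located genes had a peak. Where the construction does not show it, the cause was not tested. No paired analysis was possible because each condition has 1 ChIP library, and for the same reason none could be left out.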
